A study of Mus musculus with 24 samples.

Results

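Collagens are the triple-helical proteins of the extracellular matrix, and their genes are described here in a mouse glioma line, K-Luc, and a mouse macrophage line, RAW-Blue. The genes were taken by their symbols, which have the form Col, a type number, the letter a and a chain number. The table of read counts holds 43 such genes among 21669, and Col6a3 was not analysed here. Of the 43, 29 passed the filter on low counts in K-Luc and 13 passed it in RAW-Blue, with 10 in both, 19 in K-Luc alone and 3 in RAW-Blue alone (Col14a1, Col15a1 and Col23a1). The remaining 11 (Col6a5, Col6a6, Col9a1, Col9a2, Col10a1, Col13a1, Col19a1, Col22a1, Col24a1, Col26a1 and Col28a1) passed in neither line, with totals of 0 to 38 counts over the libraries and at most 11 counts in a library.

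A collagen molecule is a triple helix of alpha chains. Type I, III and V chains build the fibrils of connective tissue, type IV chains build the sheets of basement membranes, type VI chains build beaded filaments, and other types coat fibrils, anchor epithelia or span the cell membrane. Chains are hydroxylated and glycosylated in the endoplasmic reticulum, carried out in large COPII vesicles, trimmed of their propeptides outside the cell and cross-linked by lysyl oxidases. In brain, fibrillar collagen is known mainly from vessels and meninges, and glioma cells of mesenchymal character are known to make it as well.

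The study sequenced poly(A) RNA of 24 libraries at the end of a migration assay, in which cells grow across the gap left by a culture insert. K-Luc is a luciferase-expressing derivative of the KR158B glioma line of C57BL/6 mice, and RAW-Blue is the RAW 264.7 macrophage line with a secreted reporter of NF-kB and AP-1 activity. After 24 h of adhesion, K-Luc cells were treated for 17 to 19 h and RAW-Blue cells for 47 to 50 h. Each line had the same 5 groups. SWNT/CpG cells received single-walled carbon nanotubes dispersed in the oligonucleotide CpG-28, CpG+SWNT/LP cells received the oligonucleotide together with nanotubes dispersed in a lipid-PEG, CpG cells received the oligonucleotide alone, SWNT/LP cells received the lipid-PEG nanotubes alone, and untreated cells received water. Each agent was at 10 µg/mL. K-Luc had 3 libraries in each treated group and 2 untreated ones, and RAW-Blue had 2 in every group. The design has no oligonucleotide lacking CpG, so that the CpG motif and DNA as such cannot be told apart.

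Depth was 13.3 to 24.1 M counts per library in K-Luc and 17.2 to 20.3 M in RAW-Blue. Libraries stood apart in both lines. The chi-square of counts per degree of freedom was 7.92 to 14.5 in the 9 K-Luc pairs of a group that include replicate 1 and 2.63 to 3.44 in the 4 pairs without it, and it was 43.2 in the untreated RAW-Blue pair against 1.95 to 5.78 in the other 4 RAW-Blue pairs. The labels give 2 sequencing runs, with 3 K-Luc libraries in run 1 (replicate 1 of SWNT/CpG, of CpG+SWNT/LP and of untreated cells), and the K-Luc fit holds a term for the run. That term itself passed for 2155 of the 12420 genes tested and for 4 of the 29 collagen genes, Col3a1, Col7a1, Col8a1 and Col11a1. The share among collagen genes was thus not above that over all genes. Replicate 1 of CpG and of SWNT/LP cells, in run 2, also stood apart, at chi-squares of 8.94 and 9.83 and of 14.5 and 9.76. In this fit the term thus cannot tell run from replicate 1, and replicate 1 of those 2 groups goes without it. The labels do not say whether replicates were separate cultures, so the spread behind the p-values may be technical only. In bulk RNA such as this, fewer cells of a kind and less RNA per cell cannot be told apart. The labelled lines held their defining markers in part. In K-Luc libraries Sox2 was at 24.1 to 38.9 RPKM and Nes at 17.4 to 25.3, while Gfap was at 0 to 0.1 and Olig2 and Sox10 were at 0. The 9 macrophage markers summed to 5 to 7.3 RPKM in K-Luc libraries and to 1499.8 to 1814.3 in RAW-Blue libraries.

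K-Luc cells carried a large collagen load made mostly of fibrillar chains. Per length, Col1a1, the alpha 1 chain of type I collagen, stood far above all other collagen genes, at a mean of 869 RPKM over the 14 K-Luc libraries (520.7 to 1159.1). It held 40.7% of all collagen counts of the line. Col12a1, a chain that coats type I fibrils, followed at 104 RPKM, then Col1a2, the partner of Col1a1, at 98.6 RPKM and Col3a1, the type III chain of distensible tissues, at 84.9 RPKM. Col5a1 and Col5a2, chains of the type V collagen that sets fibril diameter, stood at 71.7 and 64.2 RPKM. The basement membrane chain Col4a1 stood at 66.6 RPKM and the beaded filament chain Col6a1 at 65.3 RPKM. Col4a4, Col4a3 and Col8a2 were among the genes that passed the filter at under 1 RPKM.

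RAW-Blue cells carried little collagen RNA. Col4a5, a type IV chain of kidney and smooth muscle basement membranes, held 78.3% of the 29838 collagen counts of the line and stood at 11.7 RPKM (10 to 14.1). Next in counts came Col20a1, a fibril-associated chain, at 0.8 RPKM, Col18a1, the source of endostatin, at 0.55 RPKM, and Col15a1, its multiplexin relative, at 0.56 RPKM. Col1a1 was at 0.08 RPKM in the macrophages.

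**Figure D1:**
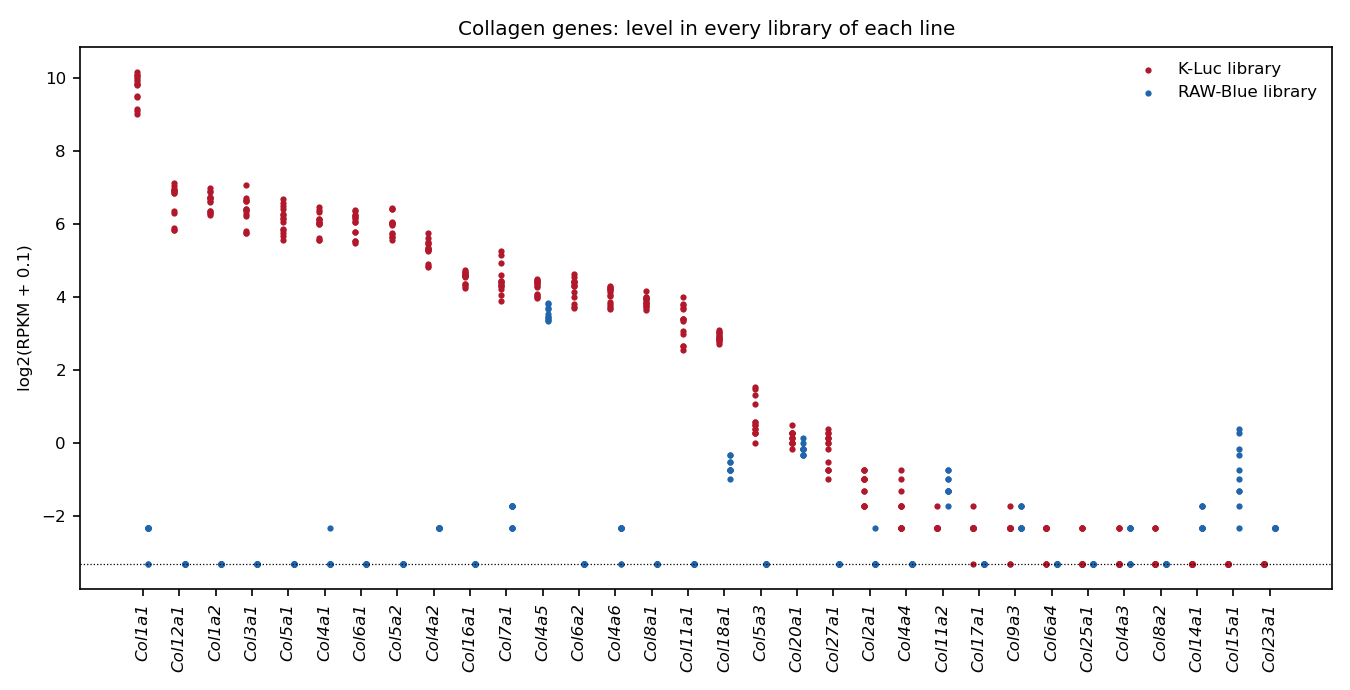
Level of each of the 32 collagen genes that passed the filter in at least 1 line, as log2 of RPKM plus 0.1 (vertical axis), with 1 point per library in K-Luc (red) and RAW-Blue (blue); the dotted line is a value of 0 RPKM. Col1a1 is the highest gene in K-Luc and Col4a5 the highest in RAW-Blue.

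Together the 43 genes took a larger share of the K-Luc library wherever the oligonucleotide was present. Collagen counts made up 1.82 ± 0.047% of counts in SWNT/CpG cells, 1.6 ± 0.042% in CpG+SWNT/LP cells, 1.65 ± 0.0734% in CpG cells and 1.08 ± 0.144% in SWNT/LP cells, against 1.13 ± 0.149% in untreated cells (mean ± SD, n = 3 for each treatment and n = 2 untreated). Relative to untreated cells the share was thus 1.60, 1.41, 1.46 and 0.957 times as large in those 4 groups, in the same order. Every library with the oligonucleotide lay above every library without it. Col1a1 is the largest part of this share.

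Start-site sequences are shown for chains that share a trimer or a chromosome position and that behaved alike or unlike in K-Luc cells. They come from RefSeq on the build GRCm38.p6, which is not the build of the count files, and cover up to 250 bases before the annotated start. Col1a2 and Col3a1 are fibrillar partners of Col1a1, whose own window is not in the table. Col4a6 and Col4a5 lie head to head on chromosome X and encode partner chains of type IV. Col7a1 was chosen after its values were seen, because it was called higher in SWNT/CpG cells and lower in CpG cells. The call in CpG cells was one that many alternative fits did not make. Capitals mark matches, on either strand, to the letters CCAAT of the CCAAT box, TATAAA of the TATA box, GGGCGG of the GC box, TGANTCA of AP-1 sites or CAGACA of Smad sites in the TGF-beta pathway.
Col1a2, chr6:4505368-4505617, plus strand: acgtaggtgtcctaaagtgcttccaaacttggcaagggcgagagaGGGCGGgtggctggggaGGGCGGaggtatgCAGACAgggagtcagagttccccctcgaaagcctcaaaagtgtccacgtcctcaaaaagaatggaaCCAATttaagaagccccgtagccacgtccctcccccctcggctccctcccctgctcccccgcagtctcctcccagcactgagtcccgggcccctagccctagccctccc
Col3a1, chr1:45311288-45311537, plus strand: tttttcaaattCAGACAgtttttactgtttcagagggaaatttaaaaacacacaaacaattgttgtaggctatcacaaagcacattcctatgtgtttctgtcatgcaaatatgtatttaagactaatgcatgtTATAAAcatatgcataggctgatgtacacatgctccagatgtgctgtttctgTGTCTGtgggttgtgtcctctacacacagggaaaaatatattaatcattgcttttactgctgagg
Col4a6, chrX:141474096-141474326, minus strand: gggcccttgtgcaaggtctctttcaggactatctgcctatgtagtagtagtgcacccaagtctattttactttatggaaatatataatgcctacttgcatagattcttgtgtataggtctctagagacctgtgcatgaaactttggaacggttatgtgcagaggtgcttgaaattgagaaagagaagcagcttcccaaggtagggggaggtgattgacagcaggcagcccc
Col4a5, chrX:141475169-141475369, plus strand: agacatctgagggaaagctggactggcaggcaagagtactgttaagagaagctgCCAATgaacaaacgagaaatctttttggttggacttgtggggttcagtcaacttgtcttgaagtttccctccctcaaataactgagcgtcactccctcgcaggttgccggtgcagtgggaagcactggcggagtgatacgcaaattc
Col7a1, chr9:108953336-108953585, plus strand: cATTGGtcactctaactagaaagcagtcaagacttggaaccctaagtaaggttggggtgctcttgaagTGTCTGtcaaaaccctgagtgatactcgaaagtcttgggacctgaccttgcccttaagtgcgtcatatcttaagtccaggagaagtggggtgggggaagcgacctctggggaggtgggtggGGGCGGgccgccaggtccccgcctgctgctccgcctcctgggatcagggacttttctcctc

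The Col1a2 window holds 1 CCAAT box, 2 GC box and 1 Smad site match, and the Col3a1 window holds 1 TATA box and 2 Smad site matches. The Col7a1 window holds 1 match each to the CCAAT box, the GC box and the Smad site. The sequences printed for Col4a5 and Col4a6 are cut to 201 and 231 bases, where the gene begins by its widest RefSeq bounds. The printed part holds 1 CCAAT box match for Col4a5 and none of the 5 motifs for Col4a6. In the rest of the window of 250 bases, which the counts that follow use, each of these 2 genes has 1 GC box match. Of the 29 genes that passed the K-Luc filter, 23 have a window in the table (Col12a1, Col1a1, Col2a1, Col4a3, Col5a2 and Col9a3 are not in it). GGGCGG occurred in 17 of the 23 (73.9%) and in 32.7% of all 32851 windows of 250 bases. CCAAT occurred in 12 (52.2%) and in 33.8% of all windows. CAGACA occurred in 7 (30.4%) and in 17.1% of all windows. The TATA box letters occurred in 3 (13%) and in 12.4% of all windows, and the AP-1 letters in 1 (4.35%) and in 6.75%. A gene with more than 1 window was counted if either window held the letters. A match is a description of letters, and no binding was measured.

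SWNT/CpG cells were set against untreated cells to see what nanotubes coated with the oligonucleotide do to each collagen type. Most collagen genes tested were higher. Of the 29 genes tested, 24 rose and 0 fell, where 21.8% of all 12420 genes tested were called higher and 21.3% lower (edgeR quasi-likelihood test, adjusted p under 0.05). All 10 fibrillar and all 6 basement membrane chains that passed the filter rose, and so did 2 of 3 beaded filament chains, both short-chain network chains, 3 of 4 fibril-associated chains and the anchoring fibril chain Col7a1. Of these, Col8a2 passed the filter only through SWNT/CpG cells, at 9, 9 and 14 counts there and at most 4 in any other K-Luc library. Its place among the genes higher in SWNT/CpG cells, here and in the other contrasts of that group, was thus favoured by the filter. The median log2 fold change of the 29 was 0.65, beside 0.01 over all genes tested. The genes not called were Col6a4, Col9a3, Col17a1, Col18a1 and Col25a1.

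The chains of types I and III, which make the bulk of fibrils, all rose. Col1a1 had 7352, 7313 and 8170 CPM (counts scaled to library size) in SWNT/CpG cells, against 4923 and 3829 CPM in untreated cells. Both untreated libraries lay under all 3 SWNT/CpG libraries, and the log2 fold change was 0.81 ± 0.14 (± standard error of the fit here and after every log2 fold change; adjusted p = 5.58e-04). Col1a2 had 1758, 1773 and 1905 CPM in SWNT/CpG cells, against 1207 and 1176 CPM in untreated cells. Its groups also did not overlap, and its log2 fold change was 0.60 ± 0.05 (adjusted p = 3.47e-07). Col3a1 averaged 1333 ± 192 CPM in SWNT/CpG cells and 784 ± 178 CPM in untreated cells (SD, n = 3 and 2), a log2 fold change of 0.83 ± 0.12.

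Type V and the minor fibrillar chains rose as well. Col5a2 had 900, 915 and 918 CPM in SWNT/CpG cells, against 560 and 530 CPM in untreated cells. The SWNT/CpG libraries spread far less than the gap between the groups, and the log2 fold change was 0.74 ± 0.05 (adjusted p = 9.78e-09). Col5a1, its partner chain, had 1126, 1238 and 1319 CPM in SWNT/CpG cells, against 731 and 689 CPM in untreated cells. With no overlap between groups, its log2 fold change was 0.77 ± 0.08 (adjusted p = 1.95e-06). Col5a3, the third type V chain, shown per library because its pattern stood out after the values were seen, had 27.3, 27.6 and 24.7 CPM in SWNT/CpG cells, against 12.5 and 12.2 CPM in untreated cells. That is a log2 fold change of 1.10 ± 0.17 with all 3 SWNT/CpG libraries above both untreated ones. Of the cartilage chains, Col11a1 changed by 1.08 ± 0.11, Col11a2 by 0.85 ± 0.29, Col2a1 by 1.17 ± 0.22 and Col27a1 by 1.00 ± 0.15 on the log2 scale, the last 3 at low levels.

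Basement membrane chains rose by unequal amounts. Col4a1 and Col4a2, the pair found in nearly every basement membrane, lie on opposite strands of chromosome 8 and overlap there by 22 bases, where counts could be shared because the strand setting of the counting is not given in the sources used here. Col4a1 had 855, 707 and 705 CPM in SWNT/CpG cells, against 653 and 468 CPM in untreated cells. Untreated replicate 1 lay close under the lowest SWNT/CpG libraries, and the log2 fold change was 0.50 ± 0.15 (adjusted p = 0.0167). Col4a2 changed by 0.56 ± 0.14 on the same scale.

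The X-linked neighbours Col4a5 and Col4a6, which join in the basement membrane of smooth muscle, rose by smaller amounts that were measured with small error. Col4a5 had 205, 200 and 190 CPM in SWNT/CpG cells, against 157 and 150 CPM in untreated cells (log2 fold change 0.38 ± 0.05, adjusted p = 1.04e-05). Col4a6 had 190, 186 and 183 CPM in SWNT/CpG cells, against 148 and 142 CPM in untreated cells (log2 fold change 0.37 ± 0.05, adjusted p = 2.47e-05). In neither gene did the groups overlap. Col4a3 and Col4a4, the chromosome 1 neighbours that join Col4a5 in the glomerulus, were near the floor of detection and had the largest log2 fold changes of the class. Col4a4 had 5.83, 4.54 and 3.38 CPM in SWNT/CpG cells, against 1.72 and 1.11 CPM in untreated cells (log2 fold change 1.78 ± 0.23, adjusted p = 1.68e-05). Col4a3 summed to 49 counts over the SWNT/CpG libraries and to 7 over the untreated ones, a depth-scaled ratio of 4.47 (95% exact interval 2.02 to 11.7, counting error only).

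The 8 markers of vessel cells, which lay basement membrane, summed to 773.7 to 1072.9 RPKM in SWNT/CpG libraries, 645.4 to 811.8 in CpG+SWNT/LP, 814.5 to 839.9 in CpG and 376.2 to 385.3 in SWNT/LP libraries, against 393.5 to 404.2 in untreated libraries. The sum thus moved with the collagen share. Nearly all of it was Acta2, at 366.3 to 1058 RPKM, while Pecam1, Cdh5, Kdr, Tek, Vwf and Rgs5 (6 of the 8) stood at 0 to 0.1 RPKM in every K-Luc library. The 8 fibroblast markers summed to 1590.6 to 1616.8 RPKM in SWNT/CpG libraries, 1719.4 to 1789.4 in CpG+SWNT/LP, 1677.7 to 1749.7 in CpG and 1638.9 to 1705.7 in SWNT/LP libraries, against 1656.4 to 1659 in untreated libraries. Nearly all of this sum was S100a4, at 1482.1 to 1693.3 RPKM over the 14 libraries. Of the same list Pdgfrb stood at 35.7 to 74.4 RPKM, Thy1 at 15.7 to 25.9, Pdgfra at 7.2 to 9 and Fbln1 at 4.9 to 7.6, while Fap, Dcn and Lum stood at 0 to 0.2 RPKM. The part of these marker genes in the collagen results was not tested.

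Beaded filament and short-chain network collagens rose in their abundant chains. Col6a1 had 410, 396 and 394 CPM in SWNT/CpG cells, against 322 and 272 CPM in untreated cells (log2 fold change 0.46 ± 0.07, adjusted p = 7.18e-05). Its chromosome 10 neighbour and partner Col6a2 had 229, 230 and 235 CPM in SWNT/CpG cells, against 185 and 155 CPM in untreated cells (log2 fold change 0.47 ± 0.10, adjusted p = 0.00183). Neither pair of groups overlapped. Col6a4, a lowly counted chain of the same class, had 0.886, 0.71 and 0.973 CPM in SWNT/CpG cells, against 0.824 and 0.398 CPM in untreated cells, with overlapping groups. Col8a1, a chain of type VIII, known from Descemet's membrane and vessel walls, had 232, 216 and 208 CPM in SWNT/CpG cells, against 189 and 164 CPM in untreated cells (log2 fold change 0.33 ± 0.05, adjusted p = 4.96e-05). Its partner Col8a2 summed to 32 counts in the SWNT/CpG libraries and to 1 count in the untreated ones. The depth-scaled ratio was 20.4 with a 95% exact interval of 3.42 to 833, so that its size is poorly known.

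Of the 4 fibril-associated chains tested 3 rose. Col12a1 had 2161, 2068 and 2044 CPM in SWNT/CpG cells, against 1391 and 1038 CPM in untreated cells (log2 fold change 0.83 ± 0.14, adjusted p = 5.93e-04). Col16a1, which lies along thin fibrils, had 201, 212 and 211 CPM in SWNT/CpG cells, against 174 and 163 CPM in untreated cells (log2 fold change 0.30 ± 0.06). Col20a1 had 11.4, 11.6 and 14 CPM in SWNT/CpG cells, against 9.74 and 10 CPM in untreated cells (log2 fold change 0.30 ± 0.11). In all 3 genes the groups did not overlap, the gap being narrow for Col20a1. Col9a3, a type IX chain of cartilage, had 0.665, 0.804 and 0.463 CPM in SWNT/CpG cells, against 0.375 and 0.442 CPM in untreated cells, and was not called.

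The anchoring fibril chain Col7a1, which ties epithelial basement membranes to the dermis, had 407, 485 and 529 CPM in SWNT/CpG cells, against 250 and 328 CPM in untreated cells. All 3 SWNT/CpG libraries lay higher, with a log2 fold change of 0.66 ± 0.12 (adjusted p = 0.00113). Col18a1 had 80.6, 78.9 and 75.9 CPM in SWNT/CpG cells, against 79.4 and 72.3 CPM in untreated cells. Its groups overlapped, and its log2 fold change had a 95% interval of -0.11 to 0.21. The transmembrane chains were at about 1 CPM or less. Col17a1, of hemidesmosomes, had 0.517, 0.615 and 0.788 CPM in SWNT/CpG cells, against 0.375 and 0.752 CPM in untreated cells, and Col25a1, a chain known from amyloid plaques, had 0.738, 0.284 and 0.371 CPM, against 0.525 and 0.221 CPM in untreated cells. The 95% intervals of their log2 fold changes, -0.78 to 0.88 and -0.61 to 1.61, leave room for changes of either sign.

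The call for SWNT/CpG over untreated cells rests on 2 untreated libraries, and 17 of the 24 calls were made without untreated replicate 2 (lost were Col4a1, Col4a2, Col6a2, Col8a2, Col11a2, Col16a1 and Col20a1), where the lone untreated library was assumed to vary as the other groups do. Col11a2 and Col20a1 also lost their calls without untreated replicate 1 or SWNT/CpG replicate 1, and Col20a1 without SWNT/CpG replicate 3. Leaving out all K-Luc libraries numbered 1 likewise keeps a lone untreated library, replicate 2. Calls over all genes also fell without untreated replicate 2. DESeq2 called 20 of the 24, and it called 4784 of all genes where edgeR called 5347. Col4a3 kept its call with each library left out but lost it under another alternative.

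**Figure D2:**
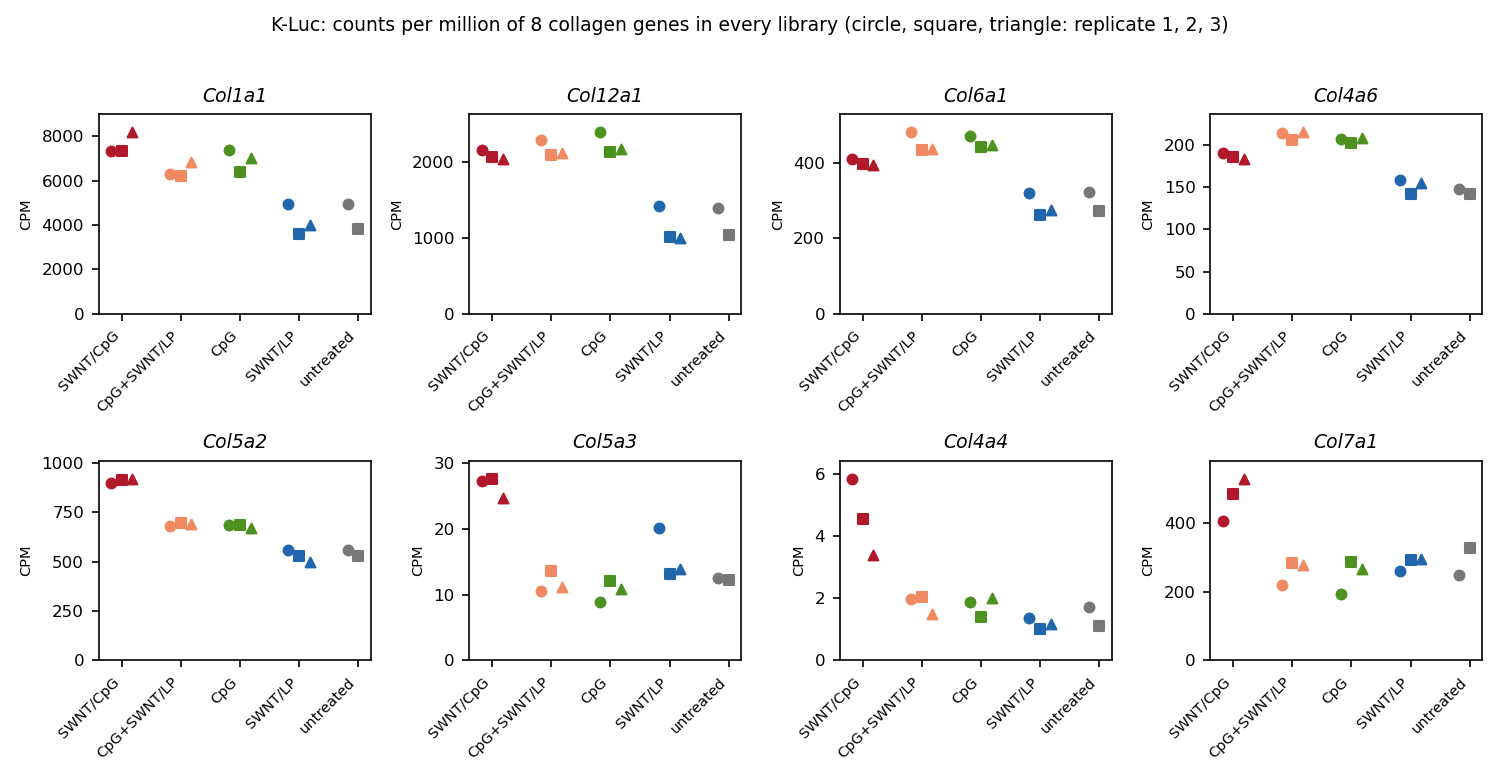
CPM (vertical axes, from 0) of 8 collagen genes in each K-Luc library, by treatment group; circles, squares and triangles are replicates 1, 2 and 3. Col1a1, Col12a1, Col6a1 and Col4a6 are high in all 3 groups with the oligonucleotide, and Col5a2, Col5a3, Col4a4 and Col7a1 are highest in SWNT/CpG.

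The oligonucleotide alone and the oligonucleotide mixed with lipid-PEG nanotubes were each set against the same 2 untreated libraries, so the 3 comparisons with untreated cells share them. In CpG+SWNT/LP cells 15 of the 29 collagen genes rose and 0 fell, where 16.1% of all genes tested were called higher and 17.8% lower. In CpG cells 17 rose and 1, Col7a1, fell, where 17.9% were called higher and 18.4% lower. The median log2 fold change was 0.48 in CpG+SWNT/LP cells and 0.49 in CpG cells, beside 0.01 and 0.01 over all genes. Of the 10 fibrillar chains 8 rose in each group, and the 2 not called in either were Col5a3 and Col11a2. Of the 6 basement membrane chains 2 rose in CpG+SWNT/LP cells, Col4a5 and Col4a6, and 4 rose in CpG cells, with Col4a1 and Col4a2 added.

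Chains of types I, VI and XII and the X-linked type IV chains rose in both groups. Col1a1 had 6302, 6188 and 6843 CPM in CpG+SWNT/LP cells and 7356, 6363 and 7016 CPM in CpG cells. Its log2 fold changes over untreated cells were 0.57 ± 0.13 and 0.69 ± 0.15 in those groups, and without untreated replicate 2 they were 0.34 and 0.43. Col12a1 had 2294, 2093 and 2117 CPM in CpG+SWNT/LP cells and 2389, 2130 and 2167 CPM in CpG cells, which are log2 fold changes of 0.88 ± 0.14 and 0.98 ± 0.15. All libraries of both genes in these groups lay above both untreated libraries. Col6a1 had 480, 432 and 436 CPM in CpG+SWNT/LP cells and 471, 441 and 446 CPM in CpG cells, and Col6a2 had 270, 249 and 251 and 278, 245 and 252 CPM. The log2 fold changes of Col6a1 were 0.62 ± 0.07 and 0.68 ± 0.07. Col4a5 had 213, 212 and 199 CPM in CpG+SWNT/LP cells and 195, 205 and 191 CPM in CpG cells, and Col4a6 had 214, 206 and 215 and 207, 202 and 208 CPM. The log2 fold changes of Col4a6 were 0.55 ± 0.05 and 0.53 ± 0.05, above the 0.37 ± 0.05 of SWNT/CpG cells. Among the cartilage chains, Col2a1 rose by 1.09 ± 0.22 and 1.23 ± 0.23, Col27a1 by 1.05 ± 0.14 and 0.84 ± 0.15, and Col11a1 by 0.68 ± 0.11 and 0.76 ± 0.12 in CpG+SWNT/LP and in CpG cells.

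Col5a1, Col5a2 and the second type I chain rose by smaller amounts than in SWNT/CpG cells, a difference tested in the direct contrasts. Col5a2 had 682, 694 and 690 CPM in CpG+SWNT/LP cells and 686, 683 and 671 CPM in CpG cells, which are log2 fold changes over untreated cells of 0.34 ± 0.05 and 0.32 ± 0.05. Col5a1 had 830, 892 and 933 CPM in CpG+SWNT/LP cells and 942, 983 and 1083 CPM in CpG cells. Col1a2 had 1532, 1544 and 1586 CPM in CpG+SWNT/LP cells and 1404, 1591 and 1492 CPM in CpG cells, at log2 fold changes of 0.38 ± 0.05 and 0.32 ± 0.06. Col5a1 and Col1a2 lay above both untreated libraries in every one of these libraries. Col5a3 had 10.5, 13.6 and 11.2 CPM in CpG+SWNT/LP cells and 8.93, 12.1 and 10.9 CPM in CpG cells, beside 12.5 and 12.2 CPM in untreated cells, and was called in neither group. Col4a4 had 1.98, 2.04 and 1.5 CPM in CpG+SWNT/LP cells and 1.89, 1.4 and 2 CPM in CpG cells, again without a call.

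Col7a1 was called lower with the oligonucleotide alone, a call that many alternative fits did not make. It had 219, 283 and 277 CPM in CpG+SWNT/LP cells and 195, 286 and 266 CPM in CpG cells, against 250 and 328 CPM in untreated cells. In both groups replicate 1 was the lowest library, as it was in untreated cells, and the groups overlapped. The log2 fold change was -0.38 ± 0.13 in CpG cells (adjusted p = 0.0387), and -0.21 ± 0.12 in CpG+SWNT/LP cells (adjusted p = 0.21), which was not called. The call in CpG cells was lost in 7 of the fits that left out 1 library, namely without either untreated library, CpG+SWNT/LP replicate 1 or 2, SWNT/LP replicate 1 or 2, or SWNT/CpG replicate 3, and the value was -0.23 without CpG replicate 1. It was also lost without the term for the run (-0.22, adjusted p = 0.372), in run 2 alone (adjusted p = 0.0903), without the filter on low counts (adjusted p = 0.106) and with only the groups compared (adjusted p = 0.231). The run term of Col7a1 was itself -0.35, run 1 minus run 2 (adjusted p = 0.0323; edgeR quasi-likelihood test throughout). The call in CpG cells was kept by DESeq2, by its scaling in edgeR and by the replicate block with the run term.

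In the short-chain network class Col8a1 was called in both groups, and in the fibril-associated class Col16a1 was called beside Col12a1. Col8a1 had 206, 196 and 193 CPM in CpG+SWNT/LP cells and 197, 203 and 187 CPM in CpG cells (log2 fold changes 0.19 ± 0.05 and 0.22 ± 0.05). Col16a1 had 216, 227 and 226 CPM in CpG+SWNT/LP cells and 198, 213 and 210 CPM in CpG cells (log2 fold changes 0.40 ± 0.06 and 0.29 ± 0.06). All of these libraries lay above both untreated ones except CpG replicate 3 for Col8a1. Col18a1 had 61, 69.1 and 68.8 CPM in CpG+SWNT/LP cells and 67.4, 67.1 and 69.6 CPM in CpG cells, all under both untreated libraries, at log2 fold changes of -0.19 ± 0.07 and -0.15 ± 0.08 that were not called. Col20a1, Col17a1, Col25a1, Col6a4 and Col9a3 were called in neither group, and neither were Col4a3 and Col8a2, at 25 and 10 counts over the CpG+SWNT/LP libraries and 22 and 10 over the CpG libraries.

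Many of the calls for the free oligonucleotide depend on untreated replicate 2. Without it a lone untreated library remains. Calls over all genes fell there as well, so the loss is not particular to collagen genes. The calls lost in CpG cells were Col1a1, Col1a2, Col3a1, Col4a1, Col4a2, Col5a1, Col7a1, Col8a1, Col16a1 (0.18 on the log2 scale) and Col27a1. Those lost in CpG+SWNT/LP cells were Col1a1, Col3a1, Col5a1 and Col8a1. In CpG cells Col4a1 also lost its call without untreated replicate 1, and Col4a1 and Col4a2 lost theirs without CpG replicate 1. Leaving out all libraries numbered 1 keeps untreated replicate 2 as the only untreated library, so that fit does not test the dependence on it.

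Lipid-PEG nanotubes on their own left no collagen gene called. Of the 29 tested, 0 rose and 0 fell in SWNT/LP cells over untreated cells, where 0.129% of all genes tested were called, and 0 of the 29 had an unadjusted p under 0.05 in edgeR. DESeq2 also called 0. The median log2 fold change was 0.01, beside 0.00 over all genes. Col1a1 had 4923, 3607 and 3984 CPM in SWNT/LP cells, against 4923 and 3829 CPM in untreated cells. Its log2 fold change was -0.04 ± 0.14, with a 95% interval of -0.35 to 0.27. Col5a2 had 558, 530 and 500 CPM in SWNT/LP cells (95% interval of the log2 fold change -0.15 to 0.07), Col4a5 had 157, 157 and 153 CPM (-0.06 to 0.15) and Col8a1 had 169, 179 and 178 CPM (-0.05 to 0.17). In each of these genes the SWNT/LP libraries overlapped the untreated ones, and the intervals bound a change to a size under that in SWNT/CpG cells. Col5a3 had 20.1, 13.2 and 13.9 CPM in SWNT/LP cells, all above both untreated libraries, at a log2 fold change of 0.32 ± 0.19 that was not called (95% interval -0.08 to 0.72). SWNT/LP replicate 1, which is of run 2, was the highest library of its group for Col1a1, Col3a1, Col4a1, Col5a3 and Col12a1.

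**Figure D3:**
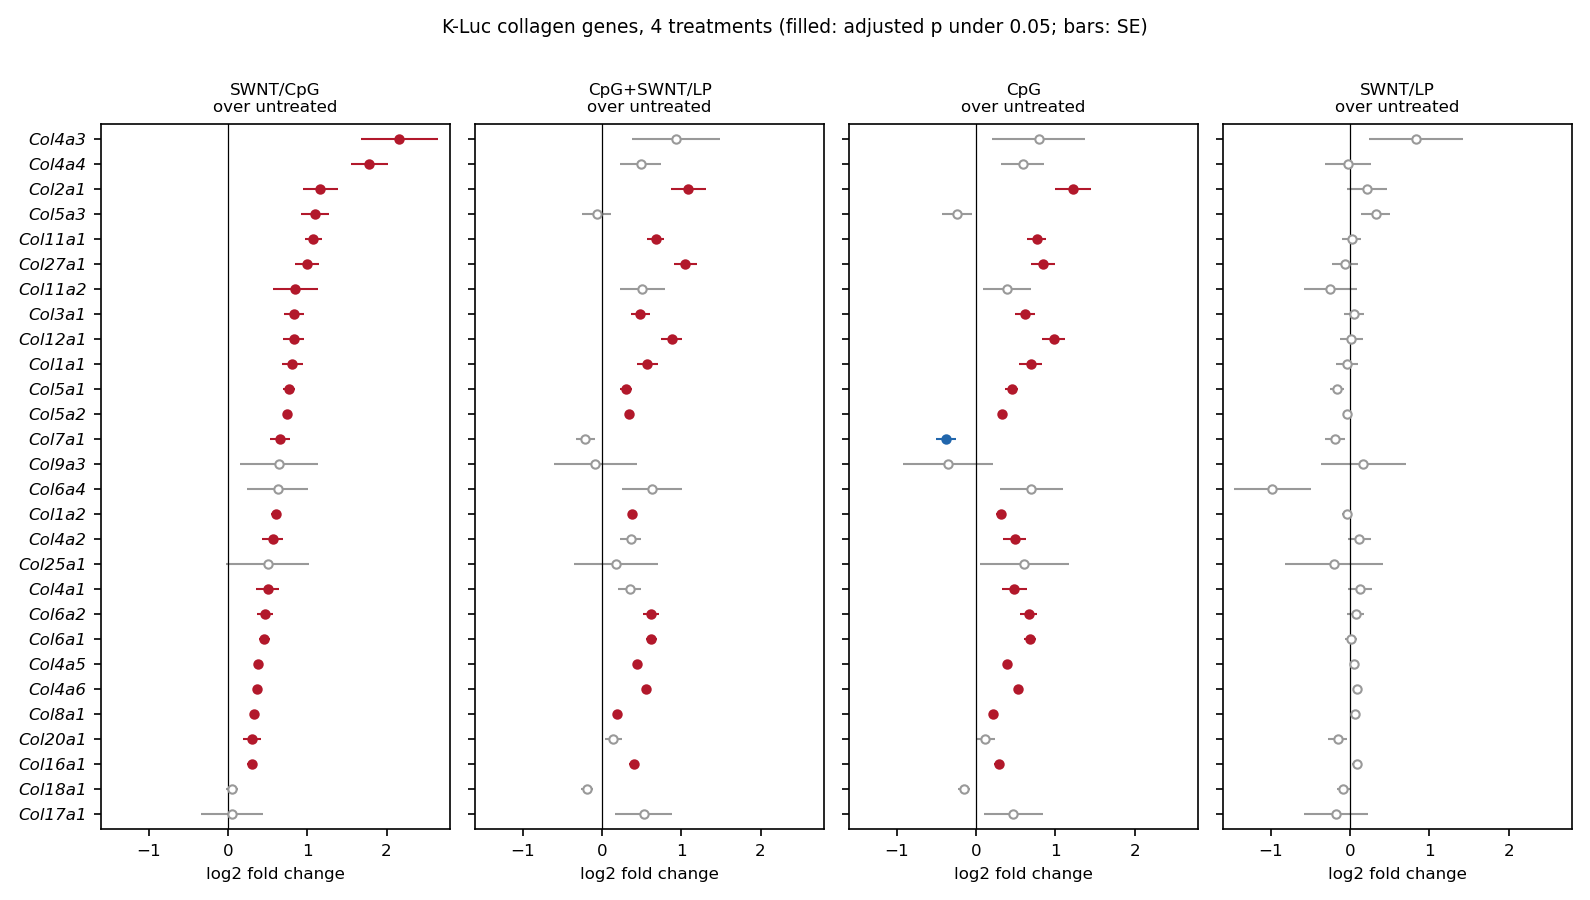
Log2 fold change over untreated cells (horizontal axes) of 28 collagen genes in K-Luc in SWNT/CpG, CpG+SWNT/LP, CpG and SWNT/LP cells, ordered by the SWNT/CpG value; bars are standard errors and filled points passed an adjusted p of 0.05 (Col8a2, with 1 untreated count, is left out). Points lie right of 0 for most genes in the first 3 panels and around 0 in the SWNT/LP panel.

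With nanotubes in both groups, the coat was compared by setting SWNT/CpG cells against SWNT/LP cells. Untreated cells are not a side of this contrast, but their libraries enter its fit through the shared spread and the run term. Of the 29 genes 25 were higher in SWNT/CpG cells and 0 were lower, where 21.5% of all genes tested were called higher and 20.2% lower, and the median log2 fold change was 0.78, beside 0.01 over all genes. The log2 fold change was 0.85 ± 0.12 for Col1a1, 0.65 ± 0.05 for Col1a2, 0.94 ± 0.07 for Col5a1, 0.78 ± 0.04 for Col5a2, 0.81 ± 0.12 for Col12a1 and 0.85 ± 0.11 for Col7a1. Col6a4, with 0.886, 0.71 and 0.973 CPM in SWNT/CpG cells, against 0.431, 0.175 and 0.223 CPM in SWNT/LP cells, was called here as well (log2 fold change 1.61 ± 0.39). The call for Col4a1 (0.37 ± 0.13) was lost without any 1 of the SWNT/CpG libraries, of the CpG+SWNT/LP libraries or of SWNT/LP replicates 2 and 3, and that for Col4a3 without SWNT/LP replicate 3 or SWNT/CpG replicate 2.

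Joining the oligonucleotide to the nanotube was compared with giving both unjoined. SWNT/CpG and CpG+SWNT/LP cells received the same mass of oligonucleotide and nanotube, and CpG+SWNT/LP cells received lipid-PEG as well. Type V, type VII and the low type IV chains were higher with the joined agent. Of the 29 genes 12 were higher in SWNT/CpG cells and 1, Col4a6, was lower, where 8.54% of all genes tested were called higher and 9.12% lower, and the median log2 fold change was 0.22, beside 0.00 over all genes. Of the 10 fibrillar chains 6 were higher: Col1a2, Col3a1, Col5a1, Col5a2, Col5a3 and Col11a1.

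Col5a2 was 911 ± 9.41 CPM in SWNT/CpG cells and 689 ± 6.26 CPM in CpG+SWNT/LP cells (mean ± SD, n = 3 each), a log2 fold change of 0.40 ± 0.04 (adjusted p = 5.11e-06). Col5a1 was 1228 ± 96.6 CPM in SWNT/CpG cells and 885 ± 51.9 CPM in CpG+SWNT/LP cells, a log2 fold change of 0.47 ± 0.07. Col5a3 was 26.5 ± 1.55 CPM in SWNT/CpG cells and 11.8 ± 1.61 CPM in CpG+SWNT/LP cells, a log2 fold change of 1.17 ± 0.15 (adjusted p = 6.74e-05). For all 3 type V genes every SWNT/CpG library lay above every CpG+SWNT/LP library. Col7a1 was 474 ± 61.9 CPM in SWNT/CpG cells and 260 ± 35.2 CPM in CpG+SWNT/LP cells, a log2 fold change of 0.87 ± 0.11 (adjusted p = 1.57e-04). Col4a4 was 4.59 ± 1.23 CPM in SWNT/CpG cells and 1.84 ± 0.297 CPM in CpG+SWNT/LP cells, a log2 fold change of 1.29 ± 0.18. Neither of these genes had overlapping groups. Col1a2 changed by 0.22 ± 0.05, Col11a1 by 0.40 ± 0.09, Col3a1 by 0.35 ± 0.11, Col8a1 by 0.14 ± 0.04, Col18a1 by 0.24 ± 0.07 and Col4a3 by 1.23 ± 0.35 on the log2 scale. Col8a2 summed to 32 counts in SWNT/CpG cells and to 10 counts in CpG+SWNT/LP cells. Col4a6 was 186 ± 3.47 CPM in SWNT/CpG cells and 212 ± 5.1 CPM in CpG+SWNT/LP cells, a log2 fold change of -0.18 ± 0.04.

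For Col1a1 the log2 difference between these groups was 0.24 ± 0.12 (95% interval -0.01 to 0.50) and for Col12a1 it was -0.05 ± 0.12 (-0.31 to 0.21), neither of them called. The calls for Col3a1, Col4a3, Col4a6, Col8a1, Col8a2 and Col18a1 were lost when 1 or another of the 6 libraries compared was left out (Col18a1 at 0.16 on the log2 scale without CpG+SWNT/LP replicate 1), and 8 genes were called without CpG+SWNT/LP replicate 3 and 8 without SWNT/CpG replicate 1, where Col8a2 no longer passed the filter. In run 2 alone 7 genes were called. With the replicate number as a block, taken to pair these libraries, the calls numbered 17, with 14 higher and 3 lower. The block called 4009 of all 12420 genes tested, beside 2194 in the main fit. The 4 collagen genes added were Col4a1 (0.15), Col4a2 (0.20), Col6a1 (-0.16) and Col6a2 (-0.14), given here as blocked log2 fold changes.

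Set against the oligonucleotide alone, the joined agent showed the same kind of split in a contrast that shares the SWNT/CpG libraries. Of the 29 genes 9 were higher in SWNT/CpG cells and 2, Col4a6 and Col6a1, were lower, where 7.29% of all genes tested were called higher and 7.58% lower. The median log2 fold change was 0.16, beside -0.01 over all genes. Higher were Col1a2 (0.29 ± 0.05), Col5a1 (0.32 ± 0.07), Col5a2 (0.42 ± 0.04), Col5a3 (1.33 ± 0.15), Col11a1 (0.31 ± 0.09), Col4a3 (1.37 ± 0.37), Col4a4 (1.19 ± 0.19), Col7a1 (1.04 ± 0.11) and Col8a2, at 32 counts in SWNT/CpG cells and 10 in CpG cells. Col7a1 was 474 ± 61.9 CPM in SWNT/CpG cells and 249 ± 48 CPM in CpG cells (SD, n = 3 each), without overlap. The log2 fold change of Col4a6 was -0.16 ± 0.05 and that of Col6a1 was -0.22 ± 0.06. For Col1a1 it was 0.12 ± 0.12, with a 95% interval of -0.14 to 0.39.

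Without SWNT/CpG replicate 3 the calls for SWNT/CpG over CpG numbered 5 (lost were Col4a3, Col4a6, Col5a1, Col6a1 and Col11a1, and Col8a2 no longer passed the filter), without SWNT/CpG replicate 2 they numbered 6 (lost were Col4a3, Col4a6, Col6a1, Col8a2 and Col11a1), and in run 2 alone they were 7. With the replicate number as a block, taken to pair these libraries too, they numbered 16, with 14 higher and 2 lower. The block called 3610 of all 12420 genes tested, beside 1847 in the main fit. The 5 collagen genes added, with their blocked log2 fold changes, were Col3a1 (0.32), Col4a1 (0.16), Col4a2 (0.20), Col8a1 (0.11) and Col18a1 (0.24). The calls for Col4a6 and Col6a1 were also lost without CpG replicate 1 or SWNT/CpG replicate 1, that for Col4a6 without CpG replicate 3, and those for Col4a3, Col8a2 and Col11a1 without 1 or more of the CpG and CpG+SWNT/LP libraries.

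Adding lipid-PEG nanotubes to the free oligonucleotide left no collagen gene called. Of the 29 genes 0 were called in either direction in CpG+SWNT/LP cells over CpG cells, where 0.266% of all genes tested were called, and 1 had an unadjusted p under 0.05 in edgeR. DESeq2 called 0. The 95% interval of the log2 fold change was -0.08 to 0.11 for Col5a2, -0.04 to 0.17 for Col1a2, -0.38 to 0.15 for Col1a1 and -0.08 to 0.42 for Col7a1.

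**Figure D4:**
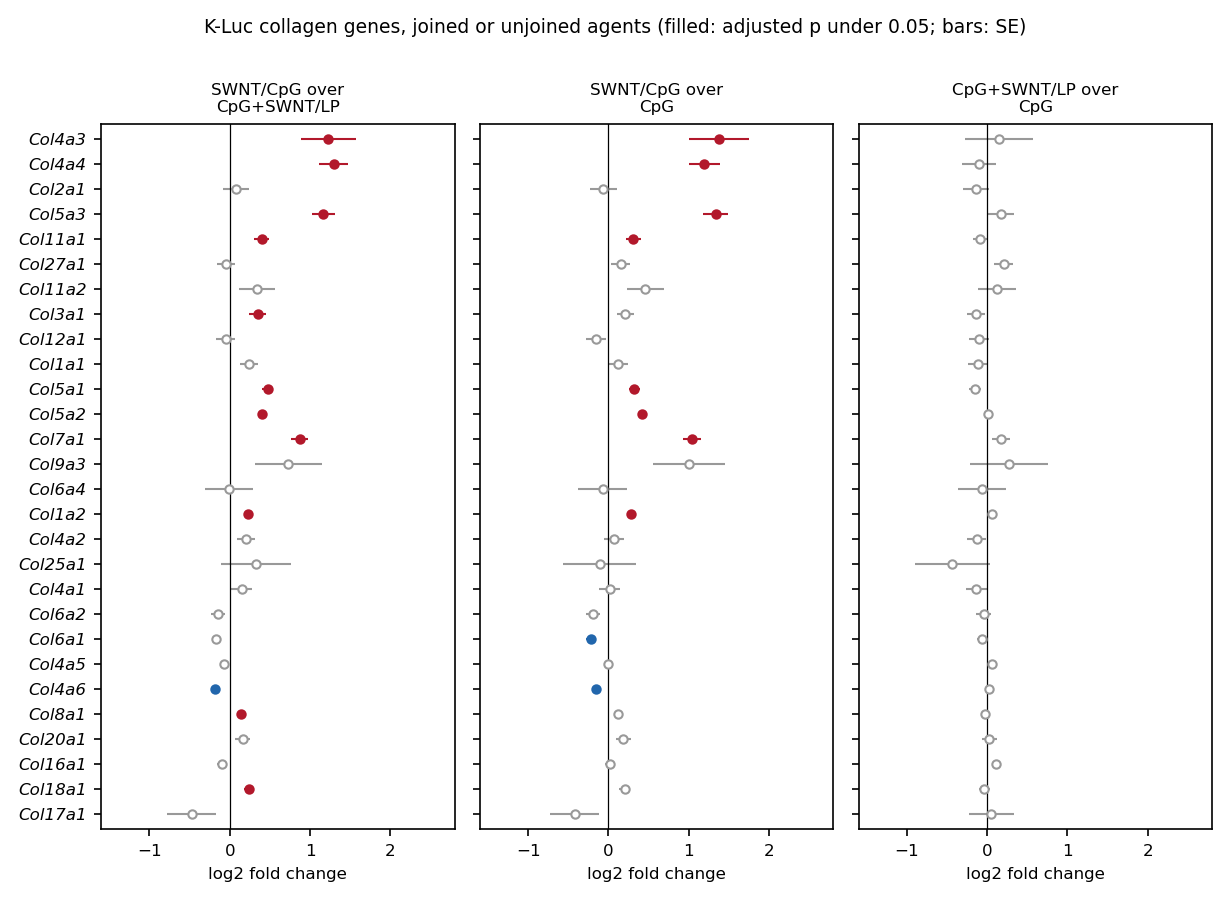
Log2 fold change (horizontal axes) of 28 collagen genes in K-Luc for SWNT/CpG over CpG+SWNT/LP, SWNT/CpG over CpG, and CpG+SWNT/LP over CpG; bars are standard errors and filled points passed an adjusted p of 0.05 (Col8a2 is left out). Col5a3, Col4a4, Col4a3 and Col7a1 lie farthest right in the first 2 panels, and no point is filled in the third.

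Because the chains of a trimer must be made in proportion, the ratio of partner chains was taken from RPKM in each K-Luc library, as a description without a test. The ratio of Col4a1 to Col4a2 was 1.62 ± 0.0416 in SWNT/CpG cells, 1.68 ± 0.085 in CpG+SWNT/LP cells, 1.65 ± 0.04 in CpG cells and 1.67 ± 0.02 in SWNT/LP cells, against 1.7 ± 0.0424 in untreated cells (mean ± SD). The ratio of Col6a1 to Col6a2 was 3.43 ± 0.111 in SWNT/CpG cells, 3.48 ± 0.0462 in CpG+SWNT/LP, 3.49 ± 0.114 in CpG and 3.31 ± 0.14 in SWNT/LP cells, against 3.48 ± 0.0424 in untreated cells. These pairs kept their ratios within narrow bounds. The ratio of Col1a1 to Col1a2 was 9 ± 0.178 in SWNT/CpG cells, 8.88 ± 0.336 in CpG+SWNT/LP, 9.96 ± 1.32 in CpG and 7.66 ± 1.02 in SWNT/LP cells, against 7.86 ± 1.26 in untreated cells. Type I collagen holds more alpha 1 than alpha 2 chains. How far these RNA ratios follow the proportion of chains in a trimer was not tested. The ratio of Col5a1 to Col5a2 spread from 1.05 to 1.2 in SWNT/CpG cells and 1.15 to 1.35 in CpG cells, while that of Col5a3 to Col5a1 was 0.0275 ± 0.00378 in SWNT/CpG cells, 0.0172 ± 0.00241 in CpG+SWNT/LP, 0.0134 ± 0.00188 in CpG and 0.0299 ± 0.00407 in SWNT/LP cells, against 0.0223 ± 3.54e-04 in untreated cells. The Col5a3 ratio was thus lowest in both groups with the free oligonucleotide. For Col4a5 over Col4a6 it was 1.23 ± 0.0289 in SWNT/CpG cells, 1.14 ± 0.0611 in CpG+SWNT/LP, 1.11 ± 0.0569 in CpG and 1.18 ± 0.0751 in SWNT/LP cells, against 1.24 ± 0.00707 in untreated cells. The SWNT/LP libraries, at 1.14 to 1.27, overlapped every other group in this ratio.

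Genes that make, export, trim, cross-link and bind collagen were counted beside the chains in SWNT/CpG cells over untreated cells. Of the 14 synthesis genes tested (15 listed) 12 rose and 0 fell, where 21.8% of all genes tested were called higher and 21.3% lower, and the median log2 fold change was 0.29. Plod2, a lysyl hydroxylase, rose by 0.54 ± 0.06, P3h1, a prolyl 3-hydroxylase, by 0.78 ± 0.09, P3h2, its relative, by 0.59 ± 0.11, and Colgalt1, which adds galactose to hydroxylysine, by 0.25 ± 0.05. Of the 12 secretion genes 9 rose and 0 fell, with a median of 0.46. Fkbp14, a collagen-binding prolyl isomerase, rose by 0.99 ± 0.07, and the COPII coat genes Sec23a, Sec24d and Sec31a rose by 0.50 ± 0.04, 0.48 ± 0.05 and 0.49 ± 0.05. The median of all genes tested was 0.01.

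Of the 6 processing genes tested (8 listed) 4 rose and 2 fell, beside the same 21.8% and 21.3% of all genes, which hold for the next 2 lists as well. Tll1 and Bmp1, which cut the C-terminal propeptide, rose by 2.03 ± 0.22 and 0.41 ± 0.06, and Pcolce, which enhances that cut, rose by 0.27 ± 0.06. Pcolce2, its relative, fell, with a log2 fold change of -0.38 ± 0.07, and so did Adamts14, which cuts the N-terminal propeptide (-0.40 ± 0.09). Of the 6 cross-linking genes 4 rose and 0 fell: Tgm2, a transglutaminase, by 1.31 ± 0.14, and the lysyl oxidase relatives Loxl2, Loxl1 and Loxl4 by 0.83 ± 0.12, 0.28 ± 0.08 and 0.17 ± 0.06. Of the 8 receptor genes tested (10 listed) 7 rose and 0 fell. The collagen-binding integrin chains Itga10, Itga2 and Itga11 rose by 1.21 ± 0.11, 2.20 ± 0.24 and 2.17 ± 0.35, and Ddr1, a collagen-activated kinase, by 0.34 ± 0.06. Itga2 and Itga11 stood at 6 ± 1.54 and 6.47 ± 0.794 CPM in SWNT/CpG cells, against 1.44 ± 0.721 and 1.67 ± 0.924 CPM in untreated cells.

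In CpG cells over untreated cells 7 of the 14 synthesis genes, 8 of the 12 secretion genes and 6 of the 8 receptor genes rose and 0 fell, where 17.9% of all genes tested were called higher and 18.4% lower. Of the 6 processing genes 2 rose and 2, Adamts14 and Pcolce2, fell there, and 2 of the 6 cross-linking genes rose. In CpG+SWNT/LP cells 5 synthesis, 8 secretion, 6 receptor, 2 processing and 4 cross-linking genes rose and 1, Pcolce2, fell, where 16.1% of all genes were called higher and 17.8% lower. In SWNT/LP cells 1 synthesis gene rose and 0 genes of the other 4 lists were called, where 0.129% of all genes were. SWNT/CpG over CpG cells shares the SWNT/CpG libraries, and the untreated libraries enter it only through the shared fit. It had 8 of the 12 secretion genes, 5 of the 14 synthesis genes and 3 of the 6 cross-linking genes higher. Also higher were 2 of the 6 processing genes and 2 of the 8 receptor genes, where 7.29% of all genes were called higher and 7.58% lower. Lower were P4ha3, a prolyl 4-hydroxylase subunit (-0.45 ± 0.09), and the integrin chain Itga1 (-0.31 ± 0.07). There Plod2 was higher by 0.43 ± 0.05, Tll1 by 1.70 ± 0.18, Tgm2 by 0.78 ± 0.12 and Loxl2 by 0.50 ± 0.10.

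In RAW-Blue macrophages few collagen genes were called, and of the fibrillar chains only Col1a1 and Col11a2 passed the filter. Of the 13 collagen genes tested, 1 rose and 1 fell in SWNT/CpG cells, where 12.8% of the 11514 genes tested were called higher and 10.4% lower. In CpG+SWNT/LP cells 1 rose and 1 fell, where 10.1% of all genes were called higher and 10.1% lower. In CpG cells 0 rose and 1 fell, where 5.18% were called higher and 5.6% lower, and in SWNT/LP cells 0 were called, where 0.478% were called in either direction. In SWNT/LP cells 1 had an unadjusted p under 0.05 in edgeR and DESeq2 called 0. The median log2 fold changes of the 13 were -0.03, 0.11, -0.09 and 0.06 in these 4 groups, beside 0.00, 0.00, 0.01 and 0.01 over all genes.

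Col15a1, which lies at basement membrane zones and carries an endostatin-like domain, fell in all 3 groups with the oligonucleotide. It had 1.21 and 2.35 CPM in SWNT/CpG macrophages, 2.09 and 2.58 CPM in CpG+SWNT/LP, 4.13 and 3.43 CPM in CpG and 6.2 and 6.79 CPM in SWNT/LP macrophages, against 9.01 and 10.1 CPM in untreated macrophages. No treated library reached the untreated ones. The log2 fold change was -2.40 ± 0.24 in SWNT/CpG cells (adjusted p = 1.30e-04), -2.03 ± 0.23 in CpG+SWNT/LP cells (4.04e-04) and -1.34 ± 0.22 in CpG cells (0.00476), and it was -0.56 ± 0.20 in SWNT/LP cells, which was not called. The calls in SWNT/CpG and CpG+SWNT/LP cells held in every alternative fit, and that in CpG cells was lost without CpG replicate 2. In SWNT/CpG over CpG macrophages 0 of the 13 were called by edgeR (0.842% of all genes), with 1 at an unadjusted p under 0.05. Col15a1 was -1.06 ± 0.27 there and was the 1 gene that DESeq2 called.

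Col14a1, a fibril-associated chain, had 2.54 and 2.4 CPM in SWNT/CpG macrophages, 0.734 and 2.73 CPM in CpG+SWNT/LP, 1.28 and 1.66 CPM in CpG and 0.886 and 1.01 CPM in SWNT/LP macrophages, against 0.799 and 0.684 CPM in untreated macrophages. It rose in SWNT/CpG cells (1.73 ± 0.50, adjusted p = 0.0335), and that call was lost without either SWNT/CpG library, either CpG library or either SWNT/LP library. The CpG+SWNT/LP libraries differed widely from each other. Col11a2 had 4.1 and 3.6 CPM in SWNT/CpG macrophages, 5.25 and 4.96 CPM in CpG+SWNT/LP, 3.41 and 3.49 CPM in CpG and 3.15 and 3.65 CPM in SWNT/LP macrophages, against 2.17 and 3.05 CPM in untreated macrophages. It rose in CpG+SWNT/LP cells (0.96 ± 0.19, adjusted p = 0.0077), a call lost without CpG+SWNT/LP replicate 1. Col4a5, the most abundant chain, had 108 and 119 CPM in SWNT/CpG macrophages, 107 and 114 CPM in CpG+SWNT/LP, 115 and 134 CPM in CpG and 143 and 137 CPM in SWNT/LP macrophages, against 118 and 150 CPM in untreated macrophages. The highest library was untreated replicate 2, and Col4a5 was not called in any group. The other 9 tested genes (Col1a1, Col4a2, Col4a3, Col4a6, Col7a1, Col9a3, Col18a1, Col20a1 and Col23a1) were not called in any of these comparisons.

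Counts of calls in the macrophages moved with the untreated pair that stands apart. Each fit that follows leaves a lone library in a group. Calls over all genes moved in the same direction in each, so these shifts are not particular to collagen genes. Without untreated replicate 1 there were 4 calls in SWNT/CpG cells and 2 in CpG cells, and without untreated replicate 2 there were 5 and 3. Without SWNT/CpG replicate 1 there was 1 call in SWNT/CpG cells, and without CpG replicate 2 there were 0 in CpG cells.

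**Figure D5:**
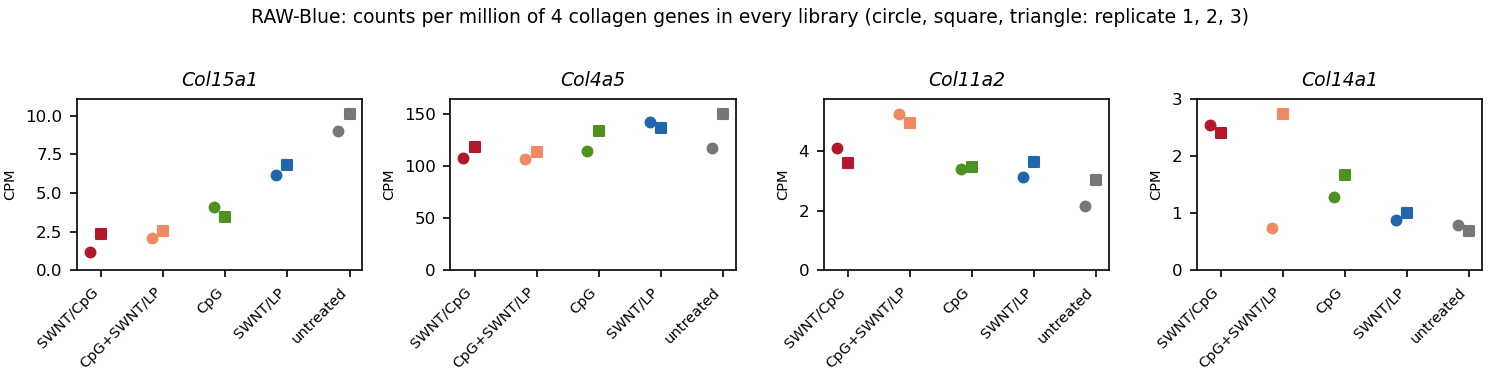
CPM (vertical axes, from 0) of Col15a1, Col4a5, Col11a2 and Col14a1 in each RAW-Blue library, by treatment group; circles and squares are replicates 1 and 2. Col15a1 is lower in every treated library than in both untreated ones, and Col4a5 lies between 107 and 150 CPM.

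The response to SWNT/CpG was compared between the lines for the 10 collagen genes tested in both, in a joint fit over 24 libraries, with treatment times that differ between the lines. For 3 genes the response was lower in RAW-Blue than in K-Luc and for 0 it was higher, where 14.4% of all genes tested were called higher and 11.1% lower. All 3 were type IV chains, and the fourth type IV chain tested in both lines, Col4a2, was not called, with a difference of 0.11 ± 0.43 (95% interval -0.78 to 1.00). The difference of log2 fold changes, RAW-Blue minus K-Luc, was -0.61 ± 0.12 for Col4a5 (adjusted p = 4.37e-04), -1.24 ± 0.30 for Col4a6 (0.00424) and -2.19 ± 0.73 for Col4a3 (0.0304). Within the lines, the log2 fold change of Col4a5 was -0.24 ± 0.12 in RAW-Blue and 0.38 ± 0.05 in K-Luc, and that of Col4a6 was -0.87 ± 0.40 in RAW-Blue and 0.37 ± 0.05 in K-Luc. For Col1a1 the difference was -1.31 ± 0.68 and for Col7a1 it was -0.56 ± 0.35, neither of them called. The call for Col4a3 was lost without either K-Luc untreated library, K-Luc SWNT/CpG replicate 2, RAW-Blue untreated replicate 2 or RAW-Blue SWNT/CpG replicate 1, and that for Col4a6 without the last of these, which left 1 call.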

How the data were processed

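Read counts per gene were used as deposited, unscaled, and the deposited RPKM values, which the authors scaled by gene length and rounded to 1 decimal, served to compare levels between genes, for chain ratios and for markers. Per the submitters' processing notes, alignment and counting involved TopHat2 2.0.14, HTSeq 0.6.0 and the build mm9. Annotation, strand setting and filters: not given in the sources used here. Per the labels' protocols, a stranded kit for poly(A) RNA was used.

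Tests were run on the counts in R 4.3.3 with the quasi-likelihood F test of edgeR 4.0.16 (limma 3.58.1), after TMM scaling and a filter on low counts by group (at least 10 in enough libraries and 15 in total). Dispersion was estimated robustly. P-values were adjusted by Benjamini-Hochberg over all genes of the fit, and a gene is called at an adjusted p under 0.05. The K-Luc fit took all 14 libraries with terms for group and run (12420 genes, 8 residual degrees of freedom). The RAW-Blue fit took all 10 libraries with a term for group (11514 genes, 5 residual degrees of freedom), and the fit of both lines took 24 libraries and 13350 genes. The standard error of a log2 fold change is its size divided by the root of F. CPM are TMM-scaled. Ratios of summed counts have exact binomial intervals that cover counting error only. The test was checked on simulated counts drawn at a common dispersion without effects of run, replicate number or pairing. The check does not cover those features of the libraries.

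The collagen genes, their classes and the lists of other genes were chosen with earlier results of these data known. Per library, values are given for the most abundant member of each class and up to 3 more with the smallest adjusted p for SWNT/CpG over untreated cells, and in the other lists up to 4 genes are named by adjusted p. As alternatives, DESeq2 1.42.0 was run in full or for its scaling alone, the filter or the run term was dropped, run 2 or the compared groups were fitted alone, the replicate number was used as a block, and each library was left out. Deviations from the group means of same-numbered libraries correlated at 0.23 to 0.50 between SWNT/CpG and CpG+SWNT/LP and at 0.12 to 0.25 between SWNT/CpG and CpG (3 pairs each), so the numbers of the labels were taken to pair these libraries and the blocked calls are given there. Deviations within a group are tied by its mean, so the 3 pairs are not separate evidence. Pairing was not told apart from a shift of replicate 1 shared between groups. Leaving out all K-Luc libraries numbered 1 was added after seeing the data.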

Additional observations from a re-analysis of the deposited data

Results flagged for a closer look

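The response to SWNT/CpG differed between the lines for 3 of the 10 collagen genes tested in both, by the test of the difference in the joint fit. The log2 difference, RAW-Blue minus K-Luc, was -2.19 for Col4a3 (adjusted p = 0.0304), -0.61 for Col4a5 (adjusted p = 4.37e-04) and -1.24 for Col4a6 (adjusted p = 0.00424; edgeR quasi-likelihood test). All 3 encode type IV chains, while the difference for Col4a2, also of type IV, was 0.11 and was not called. Treatment lasted 47 to 50 h in RAW-Blue and 17 to 19 h in K-Luc, so line and time cannot be told apart. No group had 4 or more libraries, so single libraries were not screened for distance from their group.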

How the results depend on the processing

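Among 6353 single-gene results under the alternatives, 6121 stayed on their side of the threshold, 160 were no longer called, 72 became called and 0 changed sign while called. Of the 6121, 3792 were uncalled throughout, and 188 of those changed sign. Calls that held in every setting numbered 16 of 24 for SWNT/CpG over untreated K-Luc cells, 11 of 15 for CpG+SWNT/LP, 8 of 18 for CpG, 6 of 13 for SWNT/CpG over CpG+SWNT/LP, 5 of 11 for SWNT/CpG over CpG and 22 of 25 for SWNT/CpG over SWNT/LP. The counts of called collagen genes moved by over 1.5 times as follows, and the cause was not tested. In run 2 alone, SWNT/CpG over CpG+SWNT/LP had 7 and SWNT/CpG over CpG had 7. In RAW-Blue, SWNT/CpG over untreated cells had 4 without the filter, CpG+SWNT/LP over untreated cells had 1 with only the groups compared, and SWNT/CpG over CpG had 1 by DESeq2, 1 without the filter and 1 with only the groups compared. The difference between the lines had 5 by DESeq2 over the genes of the joint fit.

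With each library left out in turn, called genes numbered 17 to 24 for SWNT/CpG, 11 to 18 for CpG+SWNT/LP, 8 to 18 for CpG and 0 to 0 for SWNT/LP over untreated K-Luc cells, 8 to 15 for SWNT/CpG over CpG+SWNT/LP, 5 to 15 over CpG and 23 to 26 over SWNT/LP, and 0 to 0 for CpG+SWNT/LP over CpG. In RAW-Blue they numbered 1 to 5 for SWNT/CpG, 2 to 3 for CpG+SWNT/LP, 0 to 3 for CpG and 0 to 1 for SWNT/LP over untreated cells, and 0 to 1 for SWNT/CpG over CpG. For the difference between the lines they numbered 1 to 4. Within both lines, calls over all genes moved between these fits too.

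For the other comparisons the replicate numbers were not taken to pair the samples, with fewer than 3 shared numbers or a pair at or under 0.1. Over all K-Luc groups same-numbered deviations correlated at -0.03 to 0.51 in 26 pairs, 20 of them over 0.1, and 13 of 14 libraries correlated best with their own number. In RAW-Blue the range was -0.10 to 0.18 over 20 pairs, with 4 over 0.1 and 10 of 10 libraries best with their own number. With 2 libraries per group the deviations mirror each other. Replicates 1 and 2 of a RAW-Blue comparison therefore give the same value, and these pairs and libraries are not separate pieces of evidence. With the replicate block, called genes numbered 24 for SWNT/CpG, 18 for CpG+SWNT/LP, 19 for CpG and 0 for SWNT/LP over untreated K-Luc cells, 17 for SWNT/CpG over CpG+SWNT/LP, 16 over CpG, 26 over SWNT/LP and 0 for CpG+SWNT/LP over CpG. In RAW-Blue the block gave 2, 2, 1 and 0 over untreated cells, in the same order, and 0 for SWNT/CpG over CpG, and for the difference between the lines it gave 6. Over all genes the block called more than the main fit in every K-Luc comparison. Without the K-Luc libraries numbered 1, SWNT/CpG had 15 over CpG+SWNT/LP and 16 over CpG.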
